A study of Mus musculus with 6 samples.

Results

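The enzymes that write, erase and oxidise methyl groups on histones and DNA were followed in the hippocampus of adult mice that had lost the histone acetyltransferase CBP from forebrain excitatory neurons. The set held 34 of the 55471 genes in the count table. They were taken by name from the families of histone methyltransferases, histone demethylases, DNA methyltransferases and TET dioxygenases. The set also held Eed and Suz12, which are subunits of a methyltransferase complex without catalytic activity, and Kmt2e, listed as a reader. For short, all 34 are called enzymes below. Their measured values were not used in the choice, though earlier results of these data were known. All 34 were expressed above the filter on low counts and were tested. The groups were 3 Control and 3 CBP-ifKO samples of hippocampal RNA, each pooled from 3 female mice of the strain labelled C57BL/6 (C57BL/6J in the methods). CBP-ifKO mice carried floxed Crebbp, which encodes CBP, and a tamoxifen-inducible recombinase (creERT2) under the Camk2a promoter. All animals, Controls included, had received 5 intragastric doses of tamoxifen (20 mg/mL in corn oil), and their age is labelled as 3 to 6 months. The treatment protocol describes the Controls as littermates without creERT2, whereas the short description of those samples names Camk2a_creERT2 alone. Esr1, part of whose sequence lies in creERT2, was at 5.65 to 6.29 CPM (TMM-scaled counts, set to the same depth in each library) in the Control libraries and 63.6 to 69.4 CPM in the CBP-ifKO libraries. The recombined allele leaves a truncated protein without acetyltransferase activity, and the Camk2a promoter restricts its loss to excitatory neurons of the forebrain, so that the other cells of the tissue kept CBP.

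Histone methylation is set by lysine methyltransferases and removed by lysine demethylases, and its meaning depends on the residue. Methylated H3K4 marks promoters and enhancers in use, H3K36 and H3K79 mark transcribed gene bodies, and H3K9 and H3K27 mark silent chromatin, the latter through Polycomb repressive complex 2 (PRC2). DNA methylation is laid down by the Dnmt enzymes and oxidised by the Tet enzymes. CBP itself acetylates histones, among other places at H3K27, a residue that carries either an acetyl or a methyl group. Neurons express most of these enzymes, and mutations in several of them, as in CREBBP, cause intellectual disability syndromes.

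Total counts per library were between 10199008 and 14950257, and the genes of the set held between 88 and 7455 counts in a library. Crebbp, the targeted gene, fell from 156.4 to 208.6 CPM in Control libraries to 87.2 to 108.6 CPM in CBP-ifKO libraries. Its paralogue Ep300 was at 81.2 to 114.6 CPM and 105.4 to 120.6 CPM and did not pass the threshold (edgeR adjusted p 0.321). Arsi, which lies beside Camk2a and travelled with the driver transgene, rose from at most 0.945 CPM to at least 4.67 CPM. No marker of any cell type listed was at 0 across all libraries. The summed level of 4 marker lists was lower in each CBP-ifKO library than in each Control library. These were interneurons (529 to 553 CPM against 473 to 503 CPM), astrocytes (1725 to 1767 against 1590 to 1670), oligodendrocyte precursors (125 to 144 against 100.1 to 106) and dividing cells (11.5 to 12.1 against 7.66 to 9.22). Slc32a1 and Sst of the 6 interneuron markers and Pdgfra and Cspg4 of the 4 precursor markers passed the threshold in edgeR, all lower. So did Mki67 of the 5 dividing-cell markers, of which 2 were tested. DESeq2 called 1 interneuron marker, 2 precursor markers and 0 dividing-cell markers. The 6 astrocyte markers held no call by edgeR, with 1 at an unadjusted p under 0.05, and none by DESeq2. The sums for 8 excitatory-neuron, 6 oligodendrocyte, 6 microglia, 5 endothelial and 4 choroid-plexus markers overlapped between the genotypes, with Wfs1 of the excitatory list called lower. Of the 8 excitatory-neuron markers, 5 had an unadjusted p under 0.05 in edgeR and 4 in DESeq2, beside 21.2% of all genes in edgeR. By estimate 3 of these 8 were higher and 5 lower. The oligodendrocyte, microglia, endothelial and choroid-plexus lists held 1, 2, 1 and 1 markers at that level in edgeR (0, 0, 1 and 1 in DESeq2). The part of these shifts in the values below was not tested, and in bulk tissue fewer cells of a type cannot be told apart from less RNA per cell.

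CBP is recruited to promoters by CREB, which binds the cyclic AMP response element. The 250 bases upstream of the annotated start are shown for those genes whose libraries separated by genotype and that are held by the RefSeq promoter table (build GRCm38.p6). Capitals mark the half-site of this element, TGACG, searched on both strands. Each window ends at the base before the start, and for Suv39h1, which has 2 windows, the one upstream of the outermost start is given.
Suv39h1, chrX:8074761-8075010, minus strand: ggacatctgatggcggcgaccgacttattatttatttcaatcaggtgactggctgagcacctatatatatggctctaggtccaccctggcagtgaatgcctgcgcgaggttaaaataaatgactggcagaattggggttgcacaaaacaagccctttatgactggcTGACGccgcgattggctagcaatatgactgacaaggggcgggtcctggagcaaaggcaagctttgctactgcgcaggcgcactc
Eed, chr7:89980977-89981226, minus strand: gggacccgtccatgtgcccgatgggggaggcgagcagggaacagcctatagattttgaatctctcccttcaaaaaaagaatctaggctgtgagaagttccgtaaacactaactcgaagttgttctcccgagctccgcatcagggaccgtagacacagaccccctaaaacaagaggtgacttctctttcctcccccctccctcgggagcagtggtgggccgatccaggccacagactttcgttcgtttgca
Suz12, chr11:79992856-79993105, plus strand: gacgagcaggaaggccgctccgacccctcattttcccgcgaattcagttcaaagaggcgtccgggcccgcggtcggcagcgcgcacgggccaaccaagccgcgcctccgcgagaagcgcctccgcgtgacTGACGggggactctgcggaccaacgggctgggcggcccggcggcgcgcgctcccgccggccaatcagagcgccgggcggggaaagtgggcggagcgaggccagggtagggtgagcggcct
Kdm6a, chrX:18162325-18162574, plus strand: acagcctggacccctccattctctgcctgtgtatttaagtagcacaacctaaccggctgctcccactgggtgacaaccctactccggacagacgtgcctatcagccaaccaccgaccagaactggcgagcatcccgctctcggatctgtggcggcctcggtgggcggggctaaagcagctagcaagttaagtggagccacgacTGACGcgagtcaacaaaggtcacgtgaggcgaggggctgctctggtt

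Suv39h1, Suz12 and Kdm6a each held 1 half-site in the window shown and Eed held none. The second Suv39h1 window, which lies inside the gene and is not shown, held no half-site and 25 CpG. The full palindrome TGACGTCA, which contains the half-site on both strands, was in none of the 37 windows found for 26 of the 34 genes, and in 1.55% of the 32851 windows of the whole table. A half-site was in 7 of the 37 windows (18.9%), against 17.8% of all windows. Those with a half-site belonged to 5 genes, and overlapping Kdm2b windows held the same site, which was counted in each. The 37 windows also held more CpG dinucleotides, the substrate of DNA methylation, than most, with a median of 23 against 6 over all windows. Their median GC content was 67.6% against 52.4%. The windows of Eed (12 CpG), Suv39h1 (11 CpG) and Kdm6a (15 CpG) shown here were below that median of 23, and that of Suz12 (37 CpG) was above it. Kmt2b, Setd1b, Kmt2e, Nsd1, Kdm5a, Kdm2a, Kdm4b and Kdm6b were not matched in the table. A matching string is a description and not a binding site.

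The comparison asked whether the transcripts of these enzymes changed when CBP was lost. Most did not pass the threshold. Of the 34 genes, 1 passed an adjusted p of 0.05 in the quasi-likelihood test of edgeR (2.94%), against 6.39% of the 17981 genes tested (1149 genes, 1.4% higher and 4.99% lower in CBP-ifKO). The 252 higher and 897 lower genes became 514 and 667 when libraries were scaled by totals alone. The enzyme called, Suv39h1, rose. The Wald test of DESeq2 called none of the 34, with 7 at an unadjusted p under 0.05, and 5.84% of the 15340 genes to which it gave an adjusted p. At an unadjusted p under 0.05 in edgeR there were 8 of the set (23.5%), against 21.2% of all genes. Of these 8, 5 were higher (Suv39h1, Eed, Suz12, Kdm5a and Kdm6a) and 3 lower (Setd1b, Kdm4b and Kdm6b). The 3 CBP-ifKO libraries lay wholly above or below the 3 Control libraries for 6 genes (17.6%), against 25.6% of all genes. By estimate 19 genes were higher and 15 lower. The median log2 fold change of the set was 0.0058, beside -0.0033 over all genes, and the median absolute log2 fold change was 0.098 beside 0.143.

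**Figure D1:**
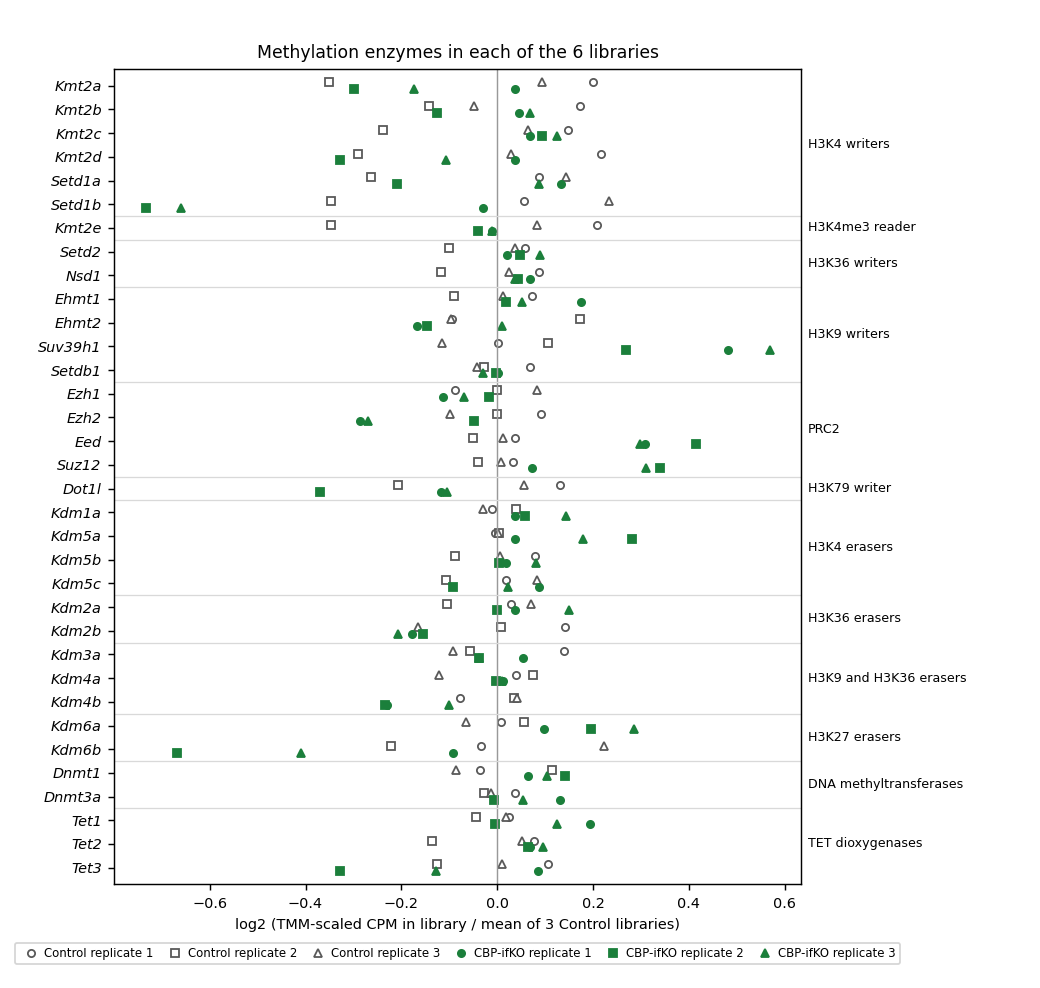
Level of each of the 34 methylation enzymes in each library, as the log2 ratio of its TMM-scaled CPM to the mean of the 3 Control libraries (open grey symbols, Control; filled green symbols, CBP-ifKO; circle, square and triangle are replicates 1 to 3), grouped by role. The green symbols lie wholly to the right of the grey ones for Suv39h1, Eed, Suz12, Kdm5a and Kdm6a and wholly to the left for Kdm4b, and the squares of replicate 2 are often the leftmost of their group.

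The precision sets bounds on the change averaged over all cells of the bulk tissue. CBP was lost only in excitatory neurons, so a change confined to those neurons may exceed these bounds. The 95% interval of the fold change lay within 1.2-fold in either direction for 17 genes and within 1.5-fold for 31. The 3 with a wider reach were Suv39h1, Setd1b and Kdm6b, which were also among the 7 genes of lowest length-scaled level. All 34 intervals lay within 2-fold. The half-width of the interval ran from 0.13 to 0.37 on the log2 scale, with a median of 0.16. Within a genotype the libraries, each from a pool of 3 mice, were close. The median coefficient of variation over the 34 genes was 7.09% in Control and 5.61% in CBP-ifKO. It measures the spread between pools and not between single mice.

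**Figure D2:**
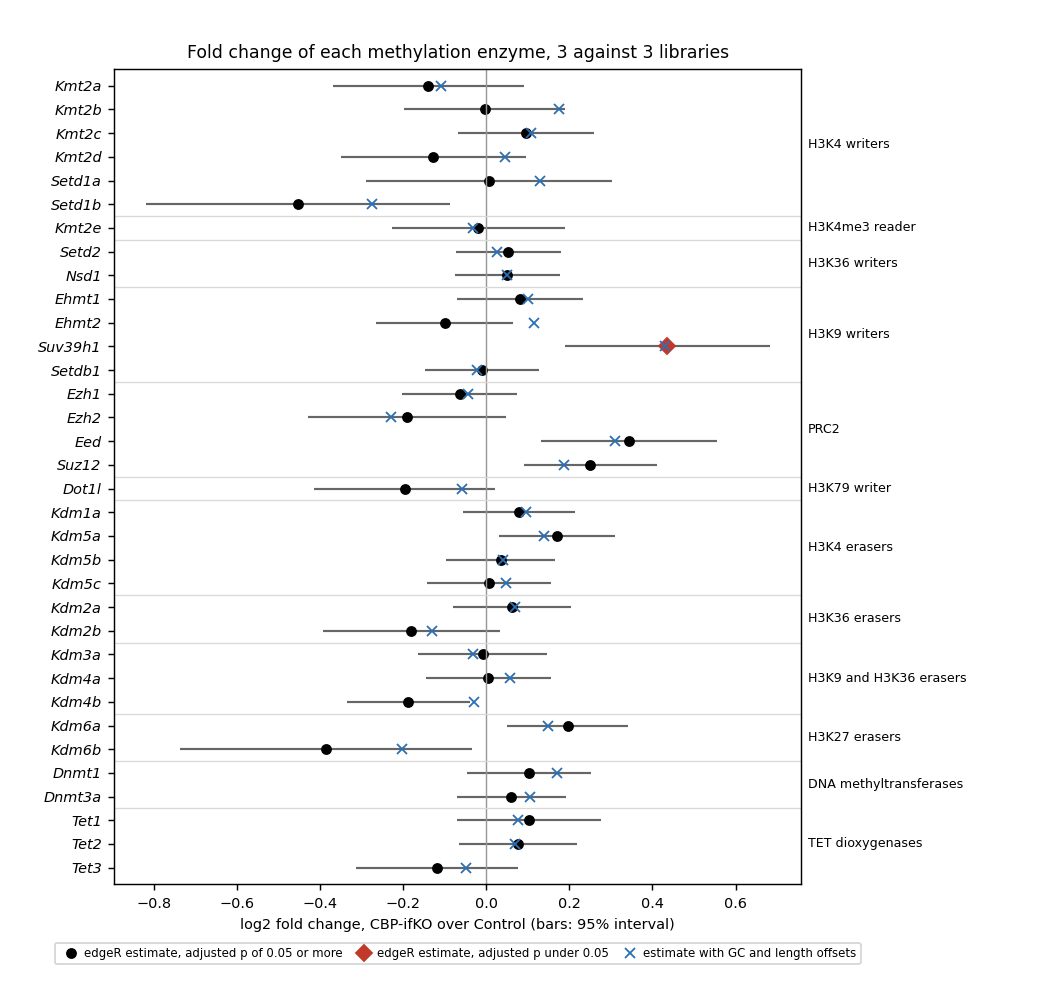
Log2 fold change of each enzyme, CBP-ifKO over Control, with its 95% interval from edgeR (points and bars; 3 against 3 libraries) and the estimate after removal of each library's trends on GC and length (blue crosses). Suv39h1 is the single red diamond at 0.44, most intervals cross 0, and the crosses of Kmt2b, Ehmt2 and Kdm4b lie well to the right of their points.

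Among the H3K9 writers, Suv39h1 rose and the other 3 had intervals that spanned 0. Suv39h1 places the trimethyl mark of pericentromeric heterochromatin (ENSMUSG00000039231, GRCm38 chromosome X, 8061171 to 8074760, minus strand). In replicate order, its level in Control was 13.3, 14.3 and 12.3 CPM. In CBP-ifKO it was 18.6, 16.0 and 19.7 CPM. The lowest CBP-ifKO library was thus above the highest Control library, by a margin smaller than the span within CBP-ifKO. The Control mean of 13.3 ± 1.02 CPM compared with 18.1 ± 1.90 CPM (SD, n = 3), and the log2 fold change was 0.44 (SE 0.12, 95% interval 0.19 to 0.68, edgeR adjusted p 0.0341) or 35.2%. The call depended on the tool and on single libraries. With DESeq2 the adjusted p was 0.0611, and in edgeR it was 0.0716 when Control replicate 1 was left out and 0.159 when Control replicate 3 was. Leaving out CBP-ifKO replicate 1 gave 0.0873, and replicate 3 of the same group 0.153. The estimate itself ran from 0.38 to 0.53 over the 14 settings, of which 9 made the call. Suv39h1 shares 14.6% of its exon bases with the antisense gene Gm14820, which held 4 to 7 counts per library. Whether the counting used strand is not given in the sources used here, and without strand reads from the shared bases cannot be assigned to either gene.

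Ehmt1 and Ehmt2, which form the dimer that dimethylates H3K9 in euchromatin, had estimates of opposite sign. Ehmt1 was at 57.6 to 64.4 CPM in Control and 62.0 to 69.1 CPM in CBP-ifKO, with a log2 fold change of 0.08 (adjusted p 0.574 by edgeR). Ehmt2 was at 115.3 to 138.8 CPM and 109.7 to 124.0 CPM (-0.10, edgeR adjusted p 0.506), and its estimate turned positive, 0.11, after removal of GC and length trends. Setdb1, which silences retroelements through H3K9, had the smallest estimate of the 4, at 69.0 to 74.5 CPM against 69.7 to 71.2 CPM (-0.01, 95% interval -0.15 to 0.13).

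Within PRC2 the estimates differed by subunit. Its scaffolding subunits Eed and Suz12 were higher in each CBP-ifKO library than in each Control library, though neither passed the threshold, and its catalytic subunits Ezh1 and Ezh2 were lower by estimate. Eed, which binds trimethylated H3K27 (ENSMUSG00000030619, chromosome 7, 89954654 to 89980983, minus strand), was at 16.1, 15.2 and 15.9 CPM in Control and 19.5, 20.97 and 19.3 CPM in CBP-ifKO. Its mean was 15.7 ± 0.49 CPM against 19.9 ± 0.90 CPM (SD, n = 3), with a log2 fold change of 0.34 (SE 0.10, 95% interval 0.13 to 0.56, edgeR adjusted p 0.0505). That value lies at the threshold, and over the alternatives it ranged from 0.0301 to 0.173. The exons of Eed overlap the antisense gene E230029C05Rik by 6.82%. Suz12, which holds the complex together (ENSMUSG00000017548, chromosome 11, 79993106 to 80034123, plus strand), was at 65.6, 62.4 and 64.5 CPM in Control. It was at 67.4, 81.2 and 79.6 CPM in CBP-ifKO, so that CBP-ifKO replicate 1 stood close to the Controls and the others well above them. The log2 fold change was 0.25 (SE 0.076, 95% interval 0.090 to 0.41, edgeR adjusted p 0.0605). With all libraries it was called under scaling by totals (0.30, adjusted p 0.0297) and with no filter on low counts (0.26, adjusted p 0.024). It was also called without CBP-ifKO replicate 1 (adjusted p 0.0173, log2 fold change 0.33) and reached 0.213 without CBP-ifKO replicate 2 (0.21).

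Ezh1 and Ezh2 carry the methyltransferase domain. Ezh1 was at 88.6, 94.1 and 99.8 CPM in Control and 87.1, 93.1 and 89.8 CPM in CBP-ifKO, giving -0.06 on the log2 fold scale (95% interval -0.20 to 0.075). Ezh2, typical of dividing cells, was at 17.7, 16.7 and 15.6 CPM and 13.7, 16.1 and 13.8 CPM (-0.19, 95% interval -0.43 to 0.047, edgeR adjusted p 0.355). Whether this estimate is tied to the lower sum of dividing-cell markers given above was not tested. Per kilobase of exon, Ezh1 stood at 12.7 and Ezh2 at 2.50 CPM in Control, the order usual for post-mitotic neurons. Their ratio was 5.10 ± 0.63 in Control and 5.58 ± 0.34 in CBP-ifKO (SD, n = 3, two-sided exact permutation p 0.3). The design of 3 against 3 cannot give less than 0.1 in that test. Of 6 such ratios between enzymes of a family or mark, the Benjamini-Hochberg adjusted p was 0.6 to 0.8.

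The H3K27 demethylases had estimates of opposite sign and no call in edgeR or DESeq2, with 2 and 1 at an unadjusted p under 0.05. Kdm6a, an X-linked gene that escapes X inactivation (ENSMUSG00000037369, chromosome X, 18162575 to 18279936, plus strand), was at 77.4, 80.0 and 73.6 CPM in Control and 82.4, 88.2 and 93.8 CPM in CBP-ifKO. The groups did not overlap, the gap between them being smaller than the spread within CBP-ifKO. The log2 fold change was 0.20 (SE 0.069, 95% interval 0.051 to 0.34, edgeR adjusted p 0.103). Kdm6b, an inducible enzyme among the least abundant of the set, was at 9.39, 8.25 and 11.2 CPM in Control and 9.01, 6.05 and 7.24 CPM in CBP-ifKO. CBP-ifKO replicate 1 lay within the Control range, and the log2 fold change was -0.39 (SE 0.17, 95% interval -0.74 to -0.033, edgeR adjusted p 0.192). It overlaps Kdm6bos on the other strand by 4.11% of its exon bases. The ratio of Kdm6a to Kdm6b, both per kilobase, was 6.78 ± 1.30 in Control and 10.1 ± 2.32 in CBP-ifKO (SD, n = 3, two-sided exact permutation p 0.2), and the libraries overlapped.

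The H3K4 writers include the large MLL proteins, which form COMPASS-like complexes at promoters and enhancers. Of 6 genes none passed the threshold in edgeR or DESeq2, and 1 had an unadjusted p under 0.05 with either tool. Setd1b was at 18.5, 14.0 and 20.9 CPM in Control and 17.4, 10.7 and 11.3 CPM in CBP-ifKO. CBP-ifKO replicate 1 lay inside the Control range and the other two lay below it, as they did for Kdm6b. The log2 fold change of Setd1b was -0.45, the most negative estimate of the set (SE 0.17, 95% interval -0.82 to -0.088, edgeR adjusted p 0.135). It was called when Control replicate 2 (-0.60, adjusted p 0.0284) or CBP-ifKO replicate 1 (-0.69, adjusted p 0.0214) was left out and with no filter on low counts (-0.45, adjusted p 0.0123), and stood at -0.27 after removal of GC and length trends. Kmt2a, which encodes MLL1, was at 255.6, 174.7 and 237.6 CPM in Control and 228.6, 180.9 and 197.4 CPM in CBP-ifKO (-0.14, edgeR adjusted p 0.51). Here Control replicate 2 was the lowest of all 6, and without it the estimate was -0.28 (adjusted p 0.0285). Kmt2c and Kmt2d, the enhancer H3K4 monomethyltransferases, had log2 fold changes of 0.096 and -0.13, and Kmt2b stood at -0.0037. Setd1a was at 9.88 to 13.1 CPM and 10.3 to 13.0 CPM (0.0059), but shares 51.8% of its exon bases with Gm49388 on the same strand, listed at 0 counts in each library, so its level is uncertain. Kmt2e, a family member that reads trimethylated H3K4 and is not known to methylate it, was at 119.6 to 175.8 CPM in Control and 148.0 to 151.0 CPM in CBP-ifKO.

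The H3K4 demethylases were higher by estimate in 4 of 4 cases, with log2 fold changes from 0.0057 to 0.17 and none past the threshold in edgeR or DESeq2. Kdm5a (ENSMUSG00000030180, chromosome 6, 120364124 to 120444574, plus strand) was nearly constant in Control at 130.1, 130.8 and 130.7 CPM. It was at 133.8, 158.5 and 147.8 CPM in CBP-ifKO, where replicate 1 exceeded the Controls by little. The log2 fold change was 0.17 (SE 0.066, 95% interval 0.030 to 0.31, edgeR adjusted p 0.144). Kdm5a shares 1.77% of its exon bases with Ccdc77 on the other strand. The X-linked Kdm5c, mutated in intellectual disability, was at 86.6 to 98.9 CPM and 87.5 to 99.04 CPM, a log2 fold change of 0.0057 (95% interval -0.14 to 0.15). Kdm5b (0.035) and Kdm1a (0.080), the flavin-dependent enzyme of the CoREST complex, also overlapped between genotypes.

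Among the erasers of H3K9 and H3K36, Kdm4b alone separated by genotype, with no call in edgeR or DESeq2. Kdm4b (ENSMUSG00000024201, chromosome 17, 56326062 to 56402870, plus strand) was at 66.6, 72.0 and 72.3 CPM in Control and 59.9, 59.7 and 65.6 CPM in CBP-ifKO. Its groups were separated by about 1 CPM, between Control replicate 1 and CBP-ifKO replicate 3. The log2 fold change was -0.19 (SE 0.070, 95% interval -0.33 to -0.040, edgeR adjusted p 0.125), and -0.030 (adjusted p 0.849) after GC and length trends were removed. Kdm4a, its close paralogue, was at 52.2 to 59.7 CPM and 56.6 to 57.2 CPM (0.0050), and Kdm3a at 67.7 to 79.5 CPM and 70.3 to 74.9 CPM (-0.0084). Of the H3K36 demethylases with CpG-binding zinc fingers, Kdm2a was at 0.063 and Kdm2b at -0.18 on the log2 fold scale (95% intervals -0.079 to 0.20 and -0.39 to 0.032). The H3K36 writers Nsd1 and Setd2 had intervals that spanned 0. Nsd1, at 504.5, 438.2 and 483.0 CPM in Control and 498.5, 490.0 and 487.9 CPM in CBP-ifKO, had a log2 fold change of 0.050 (95% interval -0.076 to 0.18), and Setd2 one of 0.053 (-0.073 to 0.18). Dot1l, the single H3K79 methyltransferase, was at 28.7 to 36.2 CPM and 25.6 to 30.8 CPM (-0.20, 95% interval -0.41 to 0.022, edgeR adjusted p 0.292).

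No enzyme of DNA methylation passed the threshold in edgeR or DESeq2, and none had an unadjusted p under 0.05 with either tool. Dnmt1, which copies methylation after replication and stays abundant in neurons, was at 63.6, 70.6 and 61.4 CPM in Control and 68.1, 71.8 and 70.0 CPM in CBP-ifKO (0.10 on the log2 fold scale, 95% interval -0.046 to 0.25). Dnmt3a, the de novo enzyme of postnatal neurons, was at 111.9, 107.0 and 108.0 CPM and 119.4, 108.5 and 113.2 CPM (0.060, 95% interval -0.071 to 0.19). Control replicate 1 exceeded CBP-ifKO replicate 2 for Dnmt3a, and Control replicate 2 exceeded CBP-ifKO replicates 1 and 3 for Dnmt1. Tet1 was at 32.3 to 33.9 CPM and 33.2 to 38.1 CPM (0.10), Tet2 at 99.3 to 115.1 CPM and 114.1 to 116.6 CPM (0.076), and Tet3 at 65.6 to 77.0 CPM and 57.1 to 75.9 CPM (-0.12). The 95% intervals of all 5 lay between -0.31 and 0.28.

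Levels of different genes were compared per kilobase of exon in the Control libraries. Nsd1 was highest at 27.2 ± 1.94 CPM per kilobase, followed by Ehmt2 (22.4 ± 2.46), whose libraries overlapped with those of Nsd1, and Setd2 (18.5 ± 1.08), which stood clear of both neighbours. At the low end Setd1a (1.74 ± 0.25), Setd1b (1.48 ± 0.29) and Kdm6b (1.38 ± 0.21) overlapped one after the other (SD, n = 3). Among the dioxygenases Tet2 (6.47 ± 0.51) was above Tet3 (4.29 ± 0.34) without overlap, and Tet1 (2.15 ± 0.057) was the lowest. Dnmt1 (8.84 ± 0.65) was above Dnmt3a (6.55 ± 0.16) per kilobase, whereas in CPM Dnmt3a was the higher (Control mean 109 against 65.2). The order of Dnmt1 and Dnmt3a thus depends on the exon lengths used, 7377 and 16642 bases. Suv39h1 (2.53 ± 0.19) and Eed (4.11 ± 0.13) belonged to the lower part of the order and Suz12 (12.97 ± 0.34) to the upper. In CBP-ifKO the levels of these became 3.44, 5.21 and 15.4 CPM per kilobase.

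**Figure D3:**
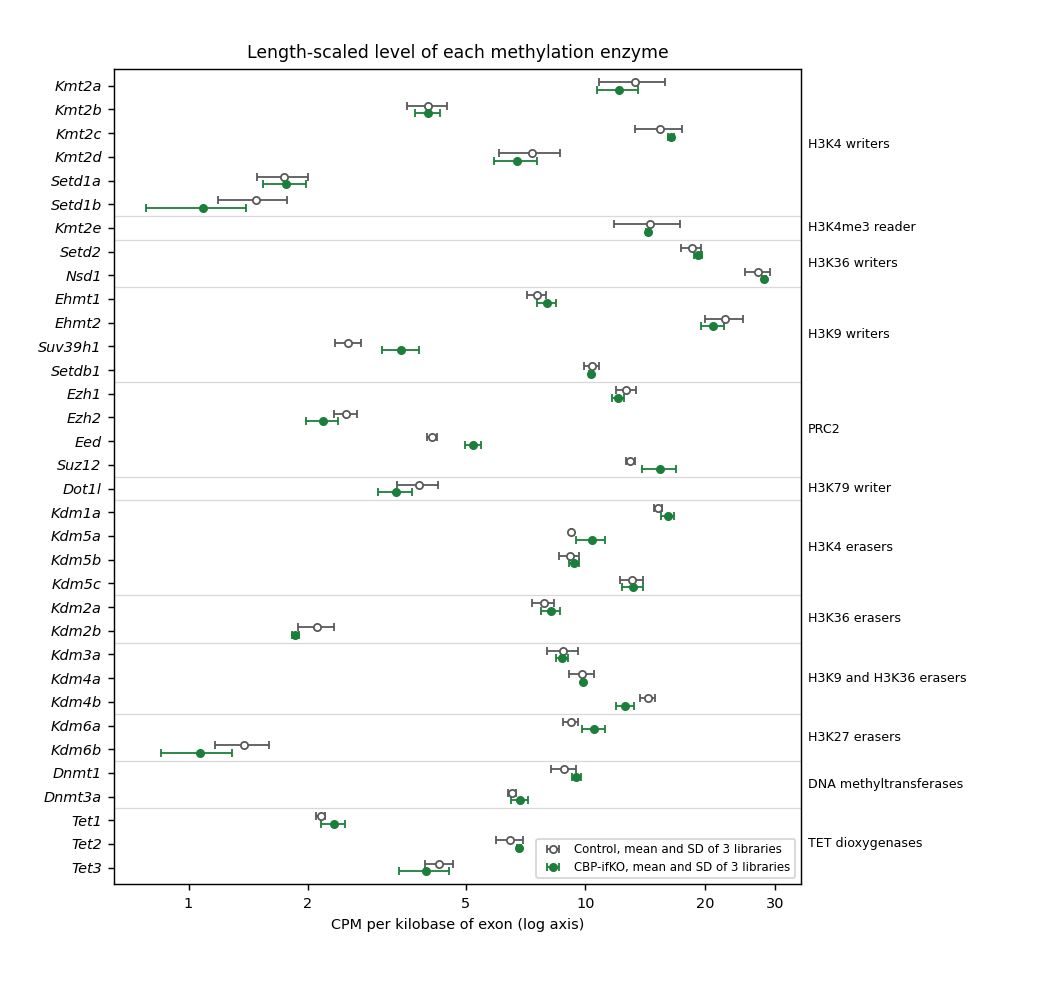
Level of each enzyme in CPM per kilobase of exon on a log axis (mean and SD of 3 libraries; open grey, Control; filled green, CBP-ifKO). Levels run from 1.38 (Kdm6b) to 27.2 (Nsd1) in Control, a span far wider than any shift between genotypes.

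Within each genotype, many of the genes shared the same lowest library. Control replicate 2 was the lowest of the 3 Controls for 21 of the 34 genes (61.8%), against 37.4% of all genes tested, and CBP-ifKO replicate 2 was the lowest of its group for 20 (58.8%), against 36.3%. Control replicate 1 was the highest of the 3 Controls for 20 of the 34 genes, against 33.1% of all genes tested. Control replicate 2 was also the Control library with the least Crebbp. Kmt2a, Kmt2d, Setd1a, Setd1b, Kmt2e and Tet3 were among the genes lowest in Control replicate 2.

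Fold changes also followed base composition. GC content of the longest transcript ran from 41.6% (Suz12) to 60.8% (Ehmt2), and its correlation with the log2 fold change across the 34 genes was -0.59 (Pearson's r) or -0.58 (Spearman's rho), with genes as points that share the same 6 libraries. Over 17956 tested genes with a GC value the same correlations were -0.26 and -0.29. Of the 8 enzymes at 55% GC or more (Kmt2b, Kmt2d, Setd1a, Setd1b, Ehmt2, Dot1l, Kdm4b and Kdm6b), 7 were lower by estimate, with a median of -0.16. Of the 3264 genes in that range 74.1% were lower, with a median of -0.13. Of the 6 enzymes below 45% (Setd2, Ezh2, Suz12, Kdm5a, Kdm6a and Tet1), 5 were higher, with a median of 0.14 beside 0.058 for all 5838 genes there. The middle 20 had a median of 0.043, beside -0.0037. The trends on GC and length were fitted in each library without a term for genotype. A GC-linked difference between the genotypes is thus removed with them, and its source was not tested. Once these trends were taken out of each library, the 3 medians of the enzymes were 0.0073, 0.11 and 0.055 in the same order. The rho across the enzymes was then -0.19, and 0.0070 over all genes. Suv39h1 (0.43, edgeR adjusted p 0.0275) and Eed (0.31, 0.0615) kept nearly the same estimate, and Suz12 went to 0.19 (0.118), Kdm6a to 0.15 (0.234), Kdm5a to 0.14 (0.221) and Kdm6b to -0.20 (0.548).

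**Figure D4:**
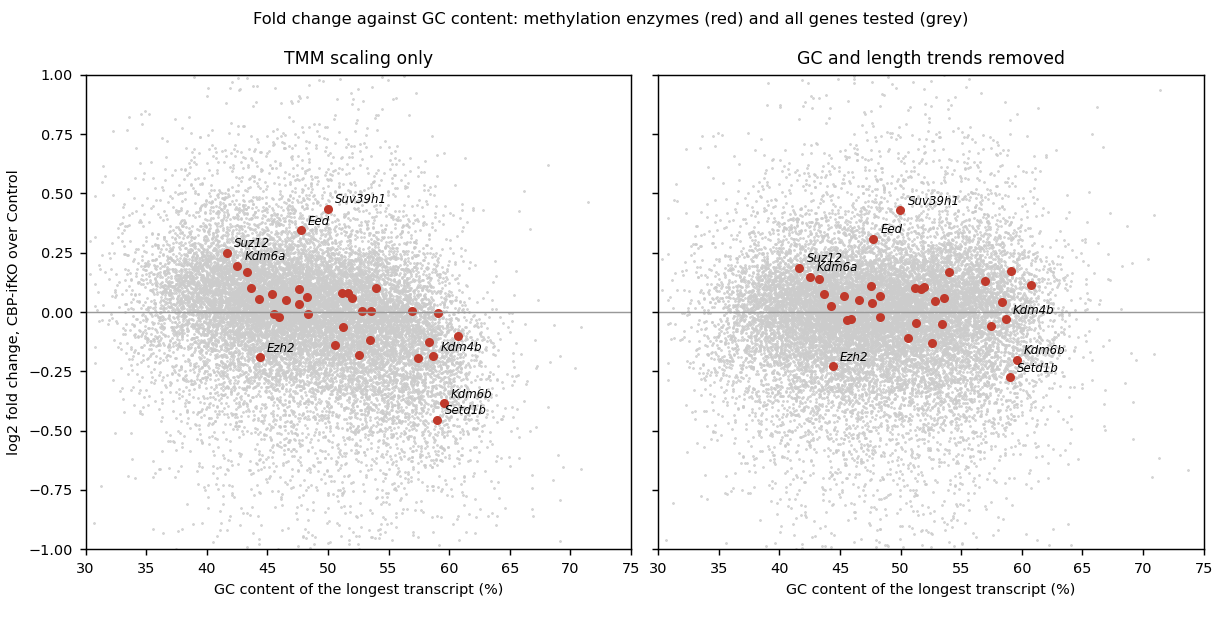
Log2 fold change against GC content of the longest transcript (%) for the 34 enzymes (red) and all genes tested (grey), before (left) and after (right) removal of each library's trends on GC content and length; 152 and 138 genes beyond the axes are not drawn. The red points slope downward on the left, with Setd1b and Kdm6b lowest at high GC, and less so on the right, where Suv39h1 and Eed stay at the top.

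Genes that work with these enzymes were also counted. Of 106 further genes in 6 lists, 104 were tested and 4 were called (3.85%), 1 higher (0.962%) and 3 lower (2.88%), against 6.39%, 1.4% and 4.99% of all genes. At an unadjusted p under 0.05 there were 23 of the 104, beside 21.2% of all genes, and the median log2 fold change was 0.033. All 4 calls were lost when CBP-ifKO replicate 2 or replicate 3 was left out. Kmt5b, which dimethylates H4K20, rose from 111.4, 107.8 and 112.6 CPM to 128.7, 133.0 and 124.3 CPM (0.22 on the log2 fold scale, SE 0.060, edgeR adjusted p 0.038). Prmt8, a membrane-bound arginine methyltransferase of neurons, fell from 62.6, 63.0 and 61.8 CPM to 55.2, 49.8 and 47.2 CPM (-0.30, SE 0.073, edgeR adjusted p 0.019). The groups of both lay clear of each other. These were 2 of the 20 other histone methyltransferases, and DESeq2 also called 2 there. Epop, an accessory protein of PRC2, fell from 3.57, 5.24 and 6.15 CPM to 2.62, 2.56 and 3.05 CPM (-0.86, SE 0.22, edgeR adjusted p 0.028). It was the 1 call among 22 subunits of COMPASS, PRC2 and CoREST, of which 21 were tested and 15 were higher by estimate. Gadd45g, an activity-induced gene tied to DNA demethylation, fell from 4.69, 4.72 and 4.17 CPM to 2.42, 2.50 and 3.05 CPM (-0.77, SE 0.20, edgeR adjusted p 0.027), 1 of 18 readers and cofactors of DNA methylation. DESeq2 called none in either of these lists. With the GC and length trends removed, 2 of the 104 genes were called, 1 higher and 1 lower. The GC content of Epop, Gadd45g and Prmt8, all lower in the main fit, was 66.9%, 59.85% and 55.25%, and that of Kmt5b was 47.03%. The other 10 histone demethylases held no call with edgeR or DESeq2, 2 and 1 of them at an unadjusted p under 0.05, and 9 were higher by estimate. The 20 readers of histone methylation held none (6 and 3 at an unadjusted p under 0.05), nor did 16 genes of methyl donor and cofactor metabolism (5 and 3).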

How the data were processed

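RNA-seq libraries (single-end, 50 bp) were made from hippocampal RNA of 3 Control and 3 CBP-ifKO samples, grouped by the labels. The authors checked reads with FastQC (0.11.8), trimmed them with Trim Galore (0.6.4), aligned them with STAR (2.6.1) to GRCm38, kept reads of mapping quality above 10 and counted them over exons of Ensembl genes with Rsubread. The authors deposited raw, unnormalized counts per gene. Multimapping reads and overlapping genes can thus lose counts.

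From these counts, edgeR (4.0.16, R 4.3.3) was run with TMM factors, filterByExpr (minimum count 10, minimum total 15) and the quasi-likelihood F-test, with Benjamini-Hochberg adjustment over 17981 genes and a threshold of 0.05. An SE is the absolute log2 fold change over the root of F, and intervals are 95%. DESeq2 (1.42.0), the tool of the study (1.30.1 per the labels), was the alternative test. CPM values are scaled by TMM, and per-kilobase levels use the exon length given in the count table. Symbols, coordinates, overlaps and GC content came from GENCODE M21 on GRCm38, which matched 99.57% of 55471 identifiers. Natural splines with 5 degrees of freedom gave the GC and length trends. The fit was also run with a simulated log2 fold change of 1, which is larger in size than the estimate of any enzyme. That run cannot tell how well changes as small as those reported here are detected. The common dispersion was a CV of 6.81% between libraries, which sets the precision beside counting error. Apart from the pooling, how the replicates were taken is not given in the sources used here, and the p-values measure the spread between these samples.

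Values are given per library for members called, members whose groups do not overlap, those highest and lowest per kilobase, and others where a result turns on them, which were chosen after their values were seen. Other lists' genes are named if called. The enzymes and the lists were chosen with earlier results of these data known, so their counts are descriptions and no list was tested as a set.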

Additional observations from a re-analysis of the deposited data

How the results depend on the processing

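The 34 estimates were compared under 7 alternatives with all libraries and 6 without 1 library. In 24 genes the sign was kept throughout, and the 10 that changed it had log2 fold changes of at most 0.127 in size. Of the enzymes, 2 were called with RLE scaling, 3 with library totals only, 0 with DESeq2 (7 at an unadjusted p under 0.05), 3 with no filter on low counts, 1 with offsets for GC and length and 2 with these offsets and the replicate block. Over all genes the calls in the same order were 1159, 1181, 896, 1511, 1130 and 1817, beside 1149 in the main fit. The replicate block alone gave 1 enzyme and 1210 genes. Same-numbered libraries had correlations of 0.0769, 0.0369 and 0.00216 in their deviations from the group means, taken before the GC and length trends were removed. With the offsets the block gave 1817 genes, against 1130 with the offsets alone. Whether the replicate numbers pair the samples cannot be told from these values. The 104 other genes gave 7 calls with totals, 2 with DESeq2, 2 with the offsets and 7 with offsets and block. The median of the enzymes was 0.0519 with totals, 0.0547 with the offsets and 0.0604 with offsets and block. Totals moved the median of all genes to 0.0425.

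Sign changes with all libraries were as follows. Kmt2b became 0.00321 (RLE), 0.0416 (totals), 0.00694 (DESeq2), 0.00484 (no filter), 0.00232 (block), 0.174 (offsets) and 0.184 (offsets and block). With totals, Kmt2e became 0.0267, Setdb1 0.0354 and Kdm3a 0.0368, and Kdm3a was 0.00152 with DESeq2 and 0.000244 with no filter. With the offsets, without and with the block, Kmt2d became 0.0442 and 0.0606 and Ehmt2 0.114 and 0.113. The cause was not tested.

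Leaving out 1 library at a time gave 0 to 3 enzymes called, 498 to 1326 genes in all, 0 to 3 of the other genes and a median of -0.00609 to 0.0744. No enzyme was called without Control replicate 1, Control replicate 3 or CBP-ifKO replicate 3 (9, 5 and 5 at an unadjusted p under 0.05), and 3 were without Control replicate 2. None of the other genes was called without CBP-ifKO replicate 2 or 3 (18 at an unadjusted p under 0.05 in each). The call count over all genes was 546 without Control replicate 3, and 498 and 526 without the second and the third CBP-ifKO library. The log2 fold change ran for Kmt2b from -0.0641 to 0.091, for Kmt2c from -0.00234 to 0.176, for Kmt2e from -0.159 to 0.098, for Setd1a from -0.107 to 0.122, for Setdb1 from -0.0285 to 0.0244, for Ehmt2 from -0.146 to 0.00476, for Kdm3a from -0.0488 to 0.0658, for Kdm4a from -0.0484 to 0.0528, for Kdm5c from -0.0376 to 0.0623. Setd1b and Kdm6b, with at most 211 counts in a library, had the widest intervals.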
